A study of Mus musculus with 22 samples.

Results

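Translation initiation factors were followed at the mRNA level in mouse brown adipose tissue (BAT) with and without cytoplasmic polyadenylation element binding protein 2 (CPEB2). The 54 genes were the protein-coding genes whose mouse symbol starts with *Eif*, taken from 55487 gene identifiers in each deposited count table. The Y-linked copy of eIF2 gamma and symbols marked as processed pseudogenes were left out by name. By role, the 54 genes comprised 5 genes of eIF1 and eIF1A, 5 of eIF2 and the other carriers of the initiator tRNA, 5 of eIF2B, 4 eIF2 kinases, 14 of eIF3, 5 of eIF4A and its cofactors, 4 of eIF4E, 3 of eIF4G, 4 4E-binding proteins, 3 of eIF5, eIF5B and eIF6, and 2 of eIF5A. A count was recorded for 53 of them, and *Eif4e1b*, a germline relative of the cap-binding protein, had 0 counts in all 22 libraries, which allows up to 3 counts in each.

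RNA-seq was performed on interscapular BAT of CPEB2-WT and CPEB2-KO mice in 2 cohorts. Untreated mice, 5 of each genotype, were 21 to 25 weeks old. They had food removed for several hours before collection, per the text of the paper. In the second cohort, adeno-associated virus AAV2/8 encoding either GFP or 3Xflag-tagged PRDM16 was injected into the interscapular BAT at 16 weeks and the tissue was taken 9 weeks later, at 25 weeks by the labels, with 3 mice for every combination of genotype (WT or KO) and virus (AAV-GFP or AAV-PRDM16). All mice were C57BL/6, labelled male, and fed chow with 9% fat. The knockout was global and came from heterozygous crosses. Many KO pups die early after birth, so the adult KO mice were survivors, and an effect within brown adipocytes cannot be told apart from one arising elsewhere in the animal. PRDM16 is a transcriptional regulator of brown fat identity, and the virus comparison asked whether raising it in KO BAT moved expression back toward WT.

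Initiation of translation begins when eIF2, carrying GTP and the initiator methionyl-tRNA, joins the small ribosomal subunit together with eIF1, eIF1A, eIF3 and eIF5. The cap-binding complex eIF4F, made of eIF4E, the scaffold eIF4G and the helicase eIF4A, brings this assembly to capped mRNA, where it scans for a start codon before the large subunit joins. There are well-known brakes: kinases phosphorylate the alpha subunit of eIF2, which then inhibits its exchange factor eIF2B, and hypophosphorylated 4E-binding proteins, targets of mTORC1, hold eIF4E away from eIF4G. CPEB2 is an RNA-binding protein of the CPEB family, which recognises the cytoplasmic polyadenylation element (CPE), a U-rich motif in the 3′ untranslated region (UTR), and regulates the translation of mRNAs that carry it. mRNA levels, the only quantity measured here, say nothing of the amount of protein or of its phosphorylation.

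Untreated libraries totalled 55320927 to 162721202 counts and AAV libraries 61636889 to 143005309. The *Eif* genes together took 0.352% to 0.444% of the counts in the first and 0.424% to 0.50005% in the second. In every library a list of 16 brown fat genes summed to 4617 CPM (counts scaled to the library total) or more. In the AAV cohort *Cpeb2* was at 10.5 to 14.0 CPM in WT and 4.33 to 5.55 CPM in KO (log2 fold change, log2FC, −1.26 ± 0.10 SE, edgeR adjusted p = 0.000449). In the untreated cohort it was at 7.69 to 14.3 CPM in WT and 2.105 to 11.7 CPM in KO, and the library labelled KO mouse 1, at 11.7 CPM, lay inside the WT range. Y-linked transcripts summed to at most 1.17 CPM, with *Xist* at 104 CPM or more, in WT mice 3 and 5 and in KO mice 1, 3, 4 and 5 of the untreated cohort, although these 6 mice were labelled male. WT mouse 4 held both, at 116 CPM of Y-linked transcripts and 14.0 CPM of *Xist*, and how these libraries relate to their labels was not resolved. Skeletal muscle genes varied between untreated libraries, with a list of 20 summing to 64.3 to 4338 CPM in WT and 47.6 to 8918 CPM in KO. All 20 were higher on average in KO. None had an unadjusted edgeR p under 0.05, beside 4.99% of all genes higher, and the lowest edgeR adjusted p was 0.349. In untreated KO mice 1 and 2 the muscle list, at 7851 and 8918 CPM, exceeded the brown fat list, at 6601 and 5344 CPM. Within-group spread was larger in the untreated cohort (common dispersion 0.312) than in the AAV cohort (0.0887), and the 2 cohorts were never fitted together.

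Because CPEB2 acts through the 3′ end of its targets, the annotated 3′ UTRs were searched for the hexamer TTTTAT and the heptamer TTTTAAT on the transcribed strand, the DNA spelling of a CPE. Taking 1 principal transcript per gene, among the 46 *Eif* genes with an annotated 3′ UTR of at least 150 bases, 9 (19.6%) held a match in the last 150 bases, against 4294 of 18360 protein-coding genes (23.4%). In the whole 3′ UTR the shares were 58.7% and 60.5%. The windows of 5 of the 9 genes are printed as examples. They are given 5′ to 3′ on the mRNA strand in the GRCm38 build, with the motif in capitals. They lie in the 3′ UTR at chrX:159389887-159389916, chr9:120495212-120495241, chr6:70905104-70905133, chr12:78886876-78886905 and, on the minus strand, chr6:99625215-99625244.
Eif1ax: attcagtggatgTTTTATgctgcacaaata
Eif1b: gtttgttgttagTTTTATtttcacttgact
Eif2ak3: aatacgtttattTTTTATttataaaaattc
Eif2s1: tttactgaaaagTTTTATatttaagagaac
Eif4e3: attttgagaaaaTTTTATttttgaacttta
All 5 windows carry the hexamer. The other 4 genes with a match were *Eif1a*, *Eif2d*, *Eif3j2* and *Eif4g1*. Their windows are not printed, although *Eif1a* recurs in the comparisons. A match describes these letters in this window and does not show that CPEB2 binds there.

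The levels of the initiation factor mRNAs were compared per length (RPKM), which is CPM further scaled to the length of annotated exon. The divisor was the union of all annotated exons, and dividing by 1 principal coding transcript per gene, a choice added after seeing the data, moved levels and orders as given below. In the AAV cohort 18 of the 54 genes averaged 20 RPKM or more (25 by principal transcript) and 5 were under 2 RPKM, *Eif4e1b* included. The mRNA of the scaffold *Eif4g1* had the highest mean level (66.8 RPKM ± 3.31 SD, n = 12 libraries), followed by *Eif5a*, which helps ribosomes past difficult peptide bonds (63.4 ± 6.16), *Eif4g2*, a scaffold that does not bind eIF4E (57.9 ± 6.65), and the helicase *Eif4a2* (49.6 ± 4.02). By principal transcript the order turned to *Eif4a2* (120 RPKM ± 9.72 SD), *Eif5a* (105 ± 10.2) and *Eif4g1* (86.5 ± 4.28). Neighbours in the exon-union order were mostly not separated: in only 7 of 53 adjacent pairs was the first gene higher in each of the 12 libraries, and in the untreated cohort in 3 of 53 pairs. There the order was led by *Eif5a* (96.6 ± 34.4), *Eif1* (66.5 ± 22.2) and *Eif4ebp1* (63.9 ± 33.6), with *Eif4g1* at 45.9 ± 17.7 RPKM (n = 10). Levels in the 2 cohorts stand side by side without a test.

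**Figure D1:**
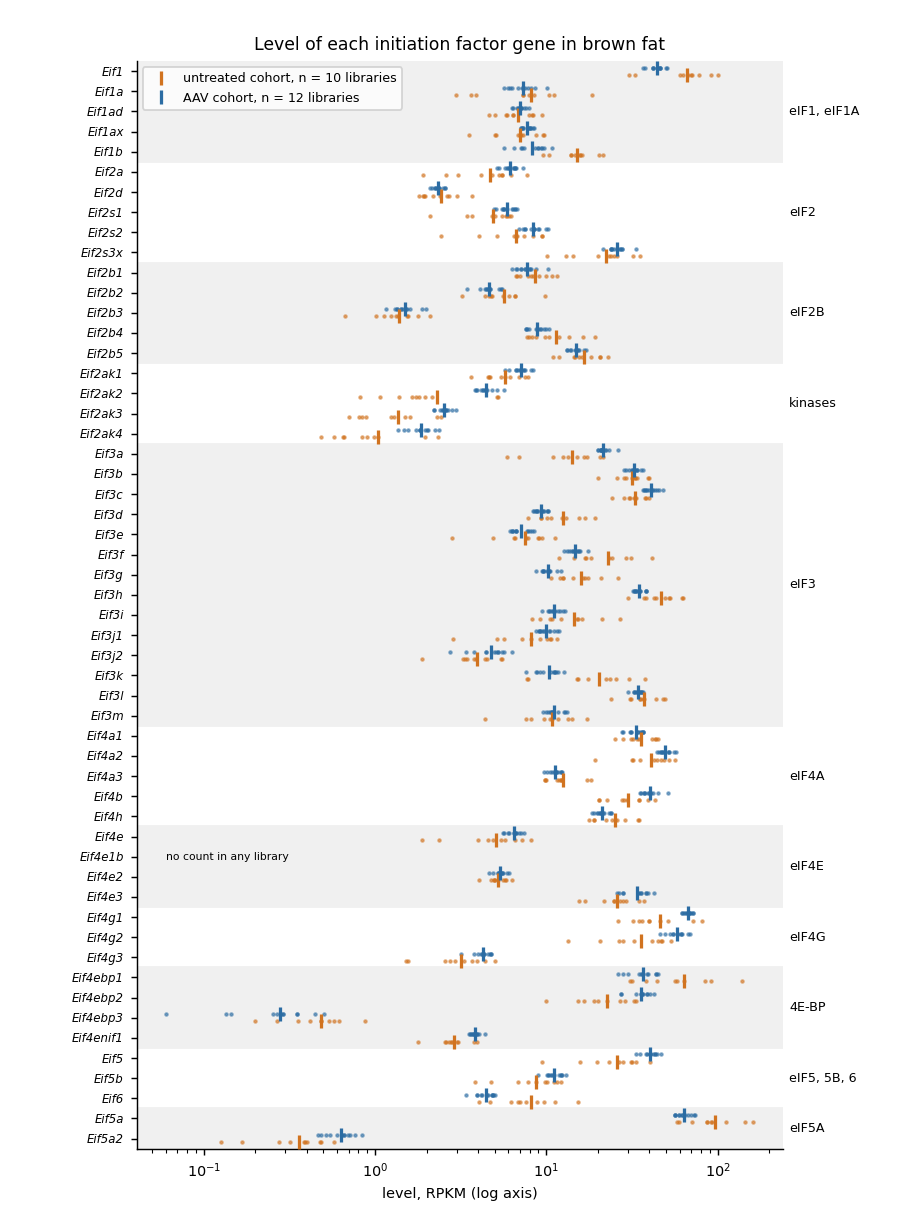
Level of each *Eif* mRNA in RPKM on a log axis, grouped by role, with one point per library and a vertical bar for the mean (orange, untreated, n = 10; blue, AAV, n = 12). The blue points of most genes lie close together, with *Eif4ebp3* an exception. The orange points of many genes, such as *Eif4ebp1* and *Eif2ak2*, spread several-fold.

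The subunits of one complex were not at equal mRNA levels. Among the eIF2 subunits in the AAV cohort, gamma (*Eif2s3x*) was at 25.9 ± 3.05 RPKM, beta (*Eif2s2*) at 8.41 ± 1.04 and alpha (*Eif2s1*), the subunit that the kinases phosphorylate, at 5.90 ± 0.594 (n = 12). The lowest gamma value was 21.5 RPKM and the highest of the others was 10.3 RPKM. This separation from beta rested on the exon union, since by principal transcript gamma was at 22.5 to 35.1 RPKM and beta at 18.4 to 27.3, while alpha stayed lower at 7.17 to 9.86. Of the 5 eIF2B subunits, the catalytic epsilon subunit *Eif2b5* was highest (14.8 ± 1.22 RPKM) and gamma, *Eif2b3*, lowest (1.49 ± 0.235), with *Eif2b4*, *Eif2b1* and *Eif2b2* at 8.82, 7.67 and 4.63 RPKM. By principal transcript *Eif2b5* was again highest (15.1 RPKM) but *Eif2b3* went to 6.26 RPKM, above *Eif2b2* (5.44). The 14 eIF3 genes ran from *Eif3c* at 41.1 ± 3.59 RPKM to *Eif3j2* at 4.73 ± 1.03 RPKM, and by principal transcript *Eif3l* was highest (64.01 RPKM) and *Eif3j2* lowest. *Eif3j2* and *Eif3j1* (9.98 ± 1.06) are close copies, as are *Eif1* and *Eif1b* and *Eif1a* and *Eif1ax*, so reads could be assigned between the members of such a pair in a way that cannot be checked here.

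The cap-binding protein mRNA was below those of some partners and above those of others. *Eif4e* was at 6.46 ± 0.547 RPKM in the AAV cohort and its repressive relative *Eif4e2* at 5.38 ± 0.395 (22.3 by principal transcript), whereas *Eif4e3*, a relative with an unusual way of holding the cap, was at 33.9 ± 5.59 RPKM (n = 12). The 4E-binding protein genes *Eif4ebp1* and *Eif4ebp2* were at 36.5 ± 6.13 and 35.7 ± 4.63 RPKM, and *Eif4ebp3* was nearly silent at 0.280 ± 0.126. *Eif4enif1*, at 3.83 RPKM, and the third scaffold *Eif4g3*, at 4.26 RPKM, were also under *Eif4e*. By principal transcript *Eif4e* was at 7.77 RPKM (6.77 to 8.86), under *Eif4e2*. Then *Eif4g3* (5.73 to 8.61) and *Eif4enif1* (6.17 to 7.61) overlapped *Eif4e*. The ratio of *Eif4ebp1* to *Eif4e* had group medians of 4.66 to 6.43 in the AAV cohort, and in the untreated cohort its median was 7.96 in WT (4.65 to 13.0) and 20.5 in KO (6.94 to 58.97), with overlapping ranges. Of the eIF2 kinases, *Eif2ak1* (HRI, the heme-regulated kinase) was at 7.07 ± 0.751 RPKM, *Eif2ak2* (PKR, activated by double-stranded RNA) at 4.45 ± 0.547, *Eif2ak3* (PERK, of the endoplasmic reticulum) at 2.54 ± 0.218 and *Eif2ak4* (GCN2, which senses uncharged tRNA) at 1.85 ± 0.296. *Eif5a2*, the second eIF5A gene, was at 0.632 ± 0.114 RPKM, far under *Eif5a*.

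The first comparison asked whether untreated KO BAT held different levels of these mRNAs from untreated WT BAT. No *Eif* gene passed in either direction, with edgeR's quasi-likelihood test and Benjamini-Hochberg adjustment over 17869 genes at an adjusted p of 0.05 (background: 0% of all genes higher and 0% lower). DESeq2 also called 0 genes of the family (0% of all genes in either direction). At an unadjusted edgeR p under 0.05, 3 of the 53 were higher and 6 lower in KO, beside 4.99% and 10.9% of all genes tested, and every adjusted p was 0.305 or more. The median log2FC of the 53 was −0.17, with 23 above 0 and 30 below, while the median of all genes was 0.04 with 51.8% above 0. The 95% interval of a member had a median half-width of 0.603 on the log2 scale, and 1 of 53 intervals lay within ±0.5, so differences of that size were not detectable here.

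The members with the smallest p showed both signs. *Eif4ebp1*, the main translational brake downstream of mTORC1 (chromosome 8:27260329-27276674, plus strand), was at 67.4, 69.9, 140, 96.8 and 127 CPM in WT mice 1 to 5 and at 124.5, 84.4, 201, 185 and 306 CPM in KO mice 1 to 5. The highest value was KO mouse 5 and the lowest were WT mice 1 and 2, and the groups overlapped. Its log2FC was 0.85 ± 0.35 (SE, 95% interval 0.08 to 1.61, edgeR adjusted p = 0.305). *Eif3f*, an eIF3 subunit (chromosome 7:108934417-108942951, plus strand), was at 34.5, 42.2, 70.2, 52.7 and 48.7 CPM in WT and 49.1, 67.1, 84.5, 90.1 and 120 CPM in KO. KO mouse 5 was again the highest, WT mice 3 and 4 lay inside the KO range, and the log2FC was 0.73 ± 0.28 (edgeR adjusted p = 0.305). *Eif2b2*, the beta subunit of eIF2B, was at 6.10 to 10.5 CPM in WT and 9.13 to 18.5 CPM in KO, with a log2FC of 0.59 ± 0.24 (edgeR adjusted p = 0.305).

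All 4 eIF2 kinase mRNAs had a mean below WT in the untreated KO mice, with a median log2FC of −0.91. *Eif2ak2*, the PKR gene (chromosome 17:78852564-78882573, minus strand), was at 26.3, 26.6, 8.88, 9.99 and 9.21 CPM in WT and 11.0, 8.38, 5.47, 7.07 and 4.16 CPM in KO. WT mice 1 and 2 stood far above the other 8 libraries, and WT mice 3 to 5 lay inside the KO range. The log2FC of −1.17 ± 0.40 (edgeR adjusted p = 0.305) became −0.33 without those 2 mice. *Eif2ak4* had the same shape, with 14.6 and 17.4 CPM in WT mice 1 and 2, 4.92 to 7.74 CPM in the other WT mice and 3.60 to 6.73 CPM in KO (log2FC −1.01 ± 0.35, and −0.31 without the 2 mice). *Eif2ak3* was at 13.8, 14.6, 5.05, 9.61 and 9.06 CPM in WT and at 7.73, 7.45, 4.87, 5.32 and 4.26 CPM in KO. Without WT mice 1 and 2, 0 of the 53 genes had an unadjusted edgeR p under 0.05, against 9 with them (all genes 1.68% higher and 0.648% lower). Without KO mouse 1, whose *Cpeb2* level lay in the WT range, 6 were higher and 15 lower (7.68% and 14.5% of all genes). The 4 libraries over 1000 CPM of muscle genes were WT mouse 3 and KO mice 1, 2 and 5. Without them, with KO mice 3 and 4 the only KO mice left, 7 were higher and 9 lower (5.22% and 12.7%). Y-linked transcripts were also entered as a covariate, as present or nearly absent, with WT mouse 4 counted as present. With it 0 were higher and 4 lower (3.15% and 3.79%). With that covariate the log2FC of *Eif4ebp1* was 0.44, that of *Eif2ak2* −0.71 and that of *Eif2ak4* −0.58. The part of muscle tissue and of the Y-linked difference in these values was not tested.

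*Eif1ax* was the only *Eif* gene whose untreated groups did not overlap (background: 0.907% of all genes without overlap and lower in KO, 0.492% higher). It encodes the X-linked form of eIF1A, which promotes scanning (chromosome X:159372178-159389928, plus strand). Its levels were 51.4, 45.9, 38.7, 37.6 and 50.2 CPM in WT and 36.8, 26.5, 26.9, 35.9 and 18.7 CPM in KO. The gap between the lowest WT and the highest KO library was under 1 CPM, and the log2FC was −0.63 ± 0.23 (95% interval −1.12 to −0.13, edgeR adjusted p = 0.305). Its partner *Eif1a* did not share the pattern, at 33.2, 15.2, 43.0, 46.0 and 35.2 CPM in WT and 76.8, 30.6, 16.1, 30.5 and 12.3 CPM in KO (log2FC −0.05). Its highest and its lowest library were both KO mice.

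The mRNAs of the cap-binding protein and of eIF2 alpha gave intervals that held 0. *Eif4e* was at 29.4 to 43.6 CPM in WT and 11.3 to 49.1 CPM in KO (log2FC −0.52, 95% interval −1.28 to 0.25). *Eif2s1* was at 23.8 to 31.0 CPM in WT and 10.4 to 29.1 CPM in KO (log2FC −0.44, interval −1.03 to 0.15). In both genes the KO mice spread further than the WT mice, and the groups overlapped.

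Across the untreated libraries the *Eif* values varied with transcript length. The log2FC of the 53 genes had a Spearman correlation of −0.65 with the length of 1 principal coding transcript per gene and of 0.69 with its GC content, against −0.29 and 0.59 over all genes. These are descriptions across genes of the same 10 libraries, and genes are not independent replicates. The short mRNAs of *Eif6* (1500 bases) and *Eif5a* (1437 bases) had log2FC of 0.61 and 0.45, and the long mRNAs of *Eif5b* (7797 bases) and *Eif4g2* (7995 bases) had −0.44 and −0.68. These 4 were named after their values were seen. Within single libraries, the deviation from the cohort mean correlated with length at 0.85, 0.73, −0.29, 0.18 and 0.04 in WT mice 1 to 5 and at 0.40, −0.14, −0.62, −0.46 and −0.53 in KO mice 1 to 5, so the genotypes overlapped. The part of transcript length and GC content in the *Eif* values was not tested. With a trend on GC content and length taken out of the counts, *Eif1ax* went to a log2FC of 0.067, *Eif2ak2* to −0.59 and *Eif2b2* to 0.11, while *Eif4ebp1* was at 1.008 and *Eif3f* at 0.80.

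**Figure D2:**
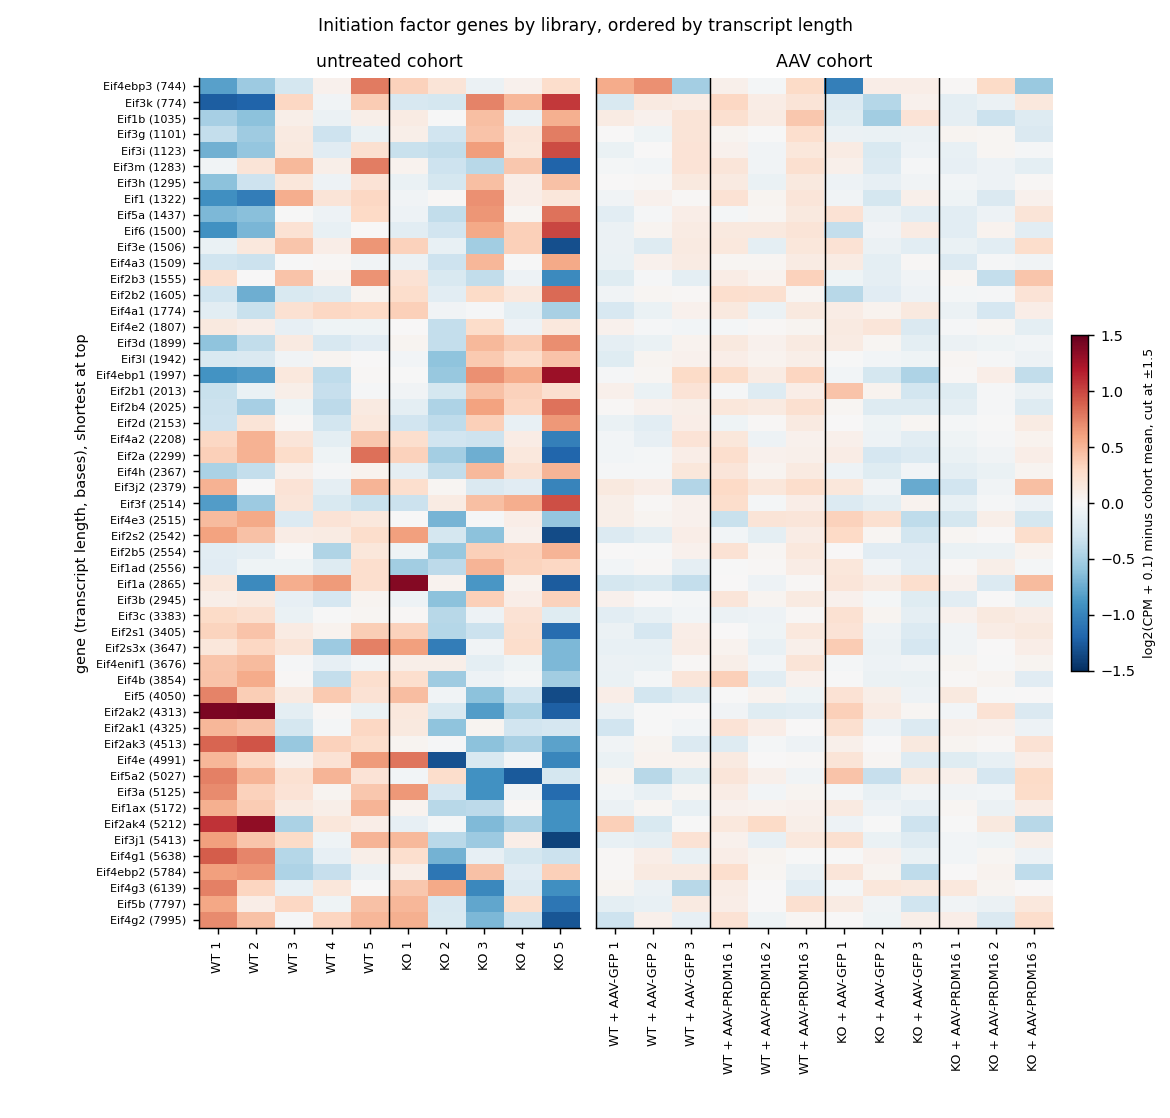
Heat map of the 53 detected *Eif* genes in every library as log2(CPM + 0.1) minus the gene's mean over the cohort, limited to ±1.5, with genes ordered by transcript length from shortest at the top. In the untreated panel WT 1 and 2 are blue at the top and red at the bottom and KO 3 and KO 5 run the other way. The AAV panel is mostly pale, apart from its top row, *Eif4ebp3*.

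**Figure D3:**
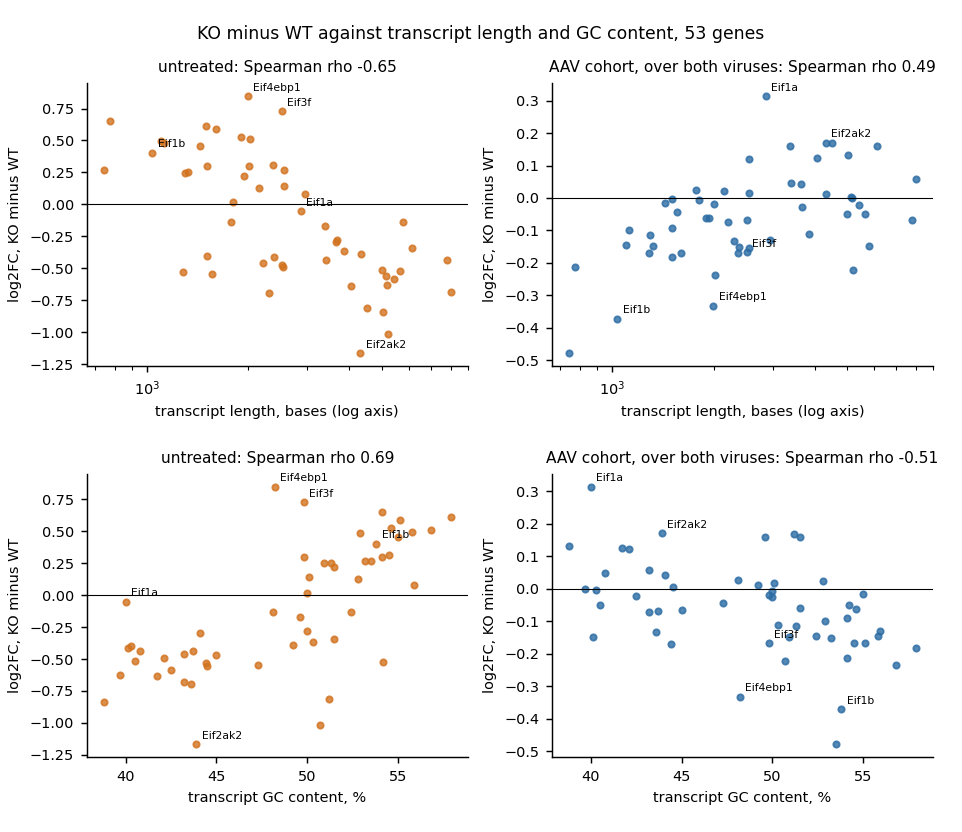
log2FC of KO against WT for 53 *Eif* genes plotted against transcript length (log axis, upper row) and GC content (lower row), untreated on the left and AAV on the right, one point per gene. The slope with length is downward for untreated mice (Spearman −0.65) and upward for AAV mice (0.49).

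The AAV cohort gave a tighter estimate of the genotype difference, with 6 WT and 6 KO mice averaged over both viruses. No *Eif* gene passed at an edgeR adjusted p of 0.05 over 18899 genes (background: 1.06% of all genes higher in KO and 1.12% lower). At an unadjusted p under 0.05, 3 genes were higher and 6 lower, beside 9.54% and 8.76% of all genes. DESeq2 called 4 genes at an adjusted p of 0.05, *Eif1a* higher and *Eif1b*, *Eif2b4* and *Eif4ebp1* lower, beside 4.41% and 3.97% of all genes, so these calls depended on the tool. The log2FC of the 53 genes ran from −0.48 to 0.31 with a median of −0.06 (0.01 for all genes), and 37 were below 0 and 16 above it (51.6% of all genes above 0). The 6 WT and 6 KO mice overlapped for every one of them, beside 1.13% of all genes without overlap and higher and 1.58% lower. The interval lay within ±0.5 for 48 of 53 genes and within ±1 for 52. Changes of 2-fold were therefore outside the intervals of all but 1 gene, *Eif4ebp3*, which was at 0.373 CPM or less in this cohort.

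**Figure D4:**
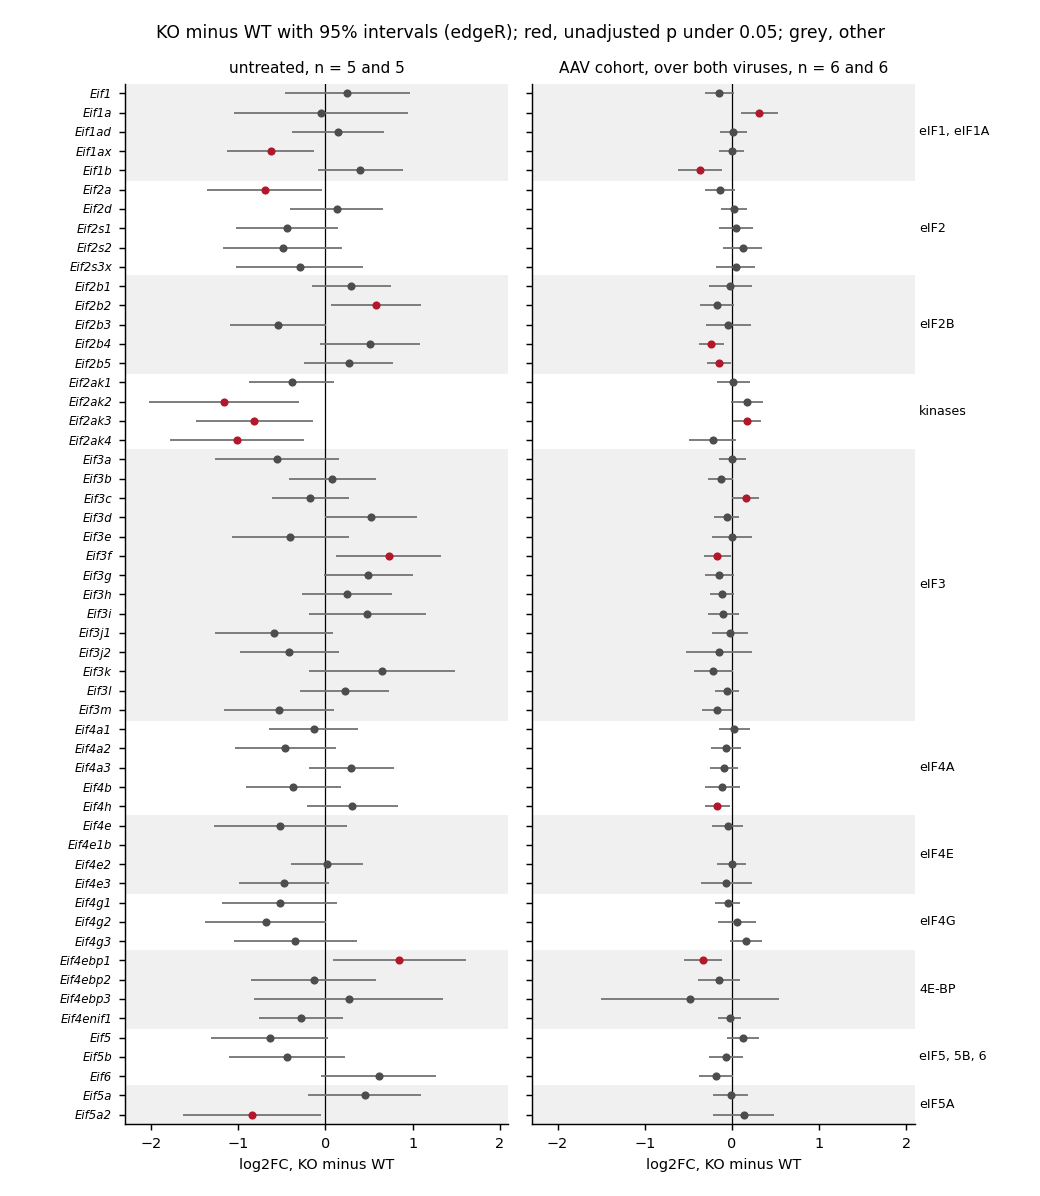
log2FC of KO against WT with its 95% interval for each *Eif* gene, ordered by role, in the untreated cohort (left, n = 5 and 5) and averaged over both viruses in the AAV cohort (right, n = 6 and 6). Red marks an unadjusted p under 0.05, and every interval on the right is narrower than its counterpart on the left.

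The smallest p of the family belonged to a subunit of eIF2B. *Eif2b4*, the delta subunit (chromosome 5:31187558-31193430, minus strand), was at 23.0, 23.9 and 24.3 CPM in WT + AAV-GFP, 25.8, 25.0 and 26.8 in WT + AAV-PRDM16, 23.3, 20.0 and 19.9 in KO + AAV-GFP and 20.6, 22.6 and 19.9 in KO + AAV-PRDM16. All KO libraries but one, at 23.3 CPM, were below the lowest WT library. The log2FC was −0.24 ± 0.07 (95% interval −0.38 to −0.09, edgeR adjusted p = 0.0825, DESeq2 0.0200). All 5 eIF2B genes had a log2FC below 0, with a median of −0.15, and in the untreated cohort *Eif2b4* was on the other side (0.51). With 1 library left out at a time, the edgeR adjusted p of *Eif2b4* ran from 0.0415 to 0.180. The lowest came without KO + AAV-GFP mouse 1, the library at 23.3 CPM.

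*Eif4ebp1* stood on opposite sides in the 2 cohorts. It was at 78.3, 80.5 and 96.6 CPM in WT + AAV-GFP, 95.9, 86.1 and 98.5 in WT + AAV-PRDM16, 76.6, 65.9 and 57.5 in KO + AAV-GFP and 80.01, 84.5 and 61.4 in KO + AAV-PRDM16. Within each virus the KO libraries lay below all WT libraries, and across viruses they overlapped. The log2FC was −0.33 ± 0.10 (95% interval −0.55 to −0.11, edgeR adjusted p = 0.101, DESeq2 0.0357), beside 0.85 in the untreated cohort. The other 3 genes of the 4E-binding group were also below 0, and *Eif4ebp2* had −0.15 (interval −0.39 to 0.09).

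*Eif1b* (chromosome 9:120492232-120495330, plus strand), whose protein resembles the start codon fidelity factor eIF1, was at 10.0, 9.61 and 10.5 CPM in WT + AAV-GFP, 10.8, 10.0 and 12.2 in WT + AAV-PRDM16, 8.10, 6.37 and 10.6 in KO + AAV-GFP and 8.35, 7.32 and 8.02 in KO + AAV-PRDM16. KO + AAV-GFP mouse 3 was the only KO library inside the WT range, and the log2FC was −0.37 ± 0.12 (95% interval −0.62 to −0.12, edgeR adjusted p = 0.106, DESeq2 0.0406). With 1 library left out at a time, the edgeR adjusted p ran from 0.0381, without that mouse, to 0.218. *Eif1* itself had −0.15 (interval −0.32 to 0.02).

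*Eif1a* had the largest value above 0 among the 53 genes, at 25.0, 25.6 and 23.5 CPM in WT + AAV-GFP, 30.1, 28.5 and 30.4 in WT + AAV-PRDM16, 34.1, 32.6 and 35.9 in KO + AAV-GFP and 31.4, 26.1 and 41.8 in KO + AAV-PRDM16. Every KO + AAV-GFP library was above every WT library, and KO + AAV-PRDM16 overlapped WT. The log2FC was 0.31 ± 0.10 (95% interval 0.10 to 0.53, edgeR adjusted p = 0.107, DESeq2 0.0385). With 1 library left out at a time, the edgeR adjusted p ran from 0.0467, without KO + AAV-PRDM16 mouse 2, to 0.218. *Eif1ax* had −0.00 (interval −0.14 to 0.14). The ratio of *Eif1a* to *Eif1ax* per length was 0.781 to 0.827 in WT + AAV-GFP and 0.968 to 1.21 in KO + AAV-GFP. With AAV-PRDM16 it overlapped, at 0.852 to 0.904 in WT and 0.865 to 1.20 in KO. Without AAV the ratio spanned 0.417 to 1.55 among WT mice and 0.757 to 2.64 among KO mice, with no separation.

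**Figure D5:**
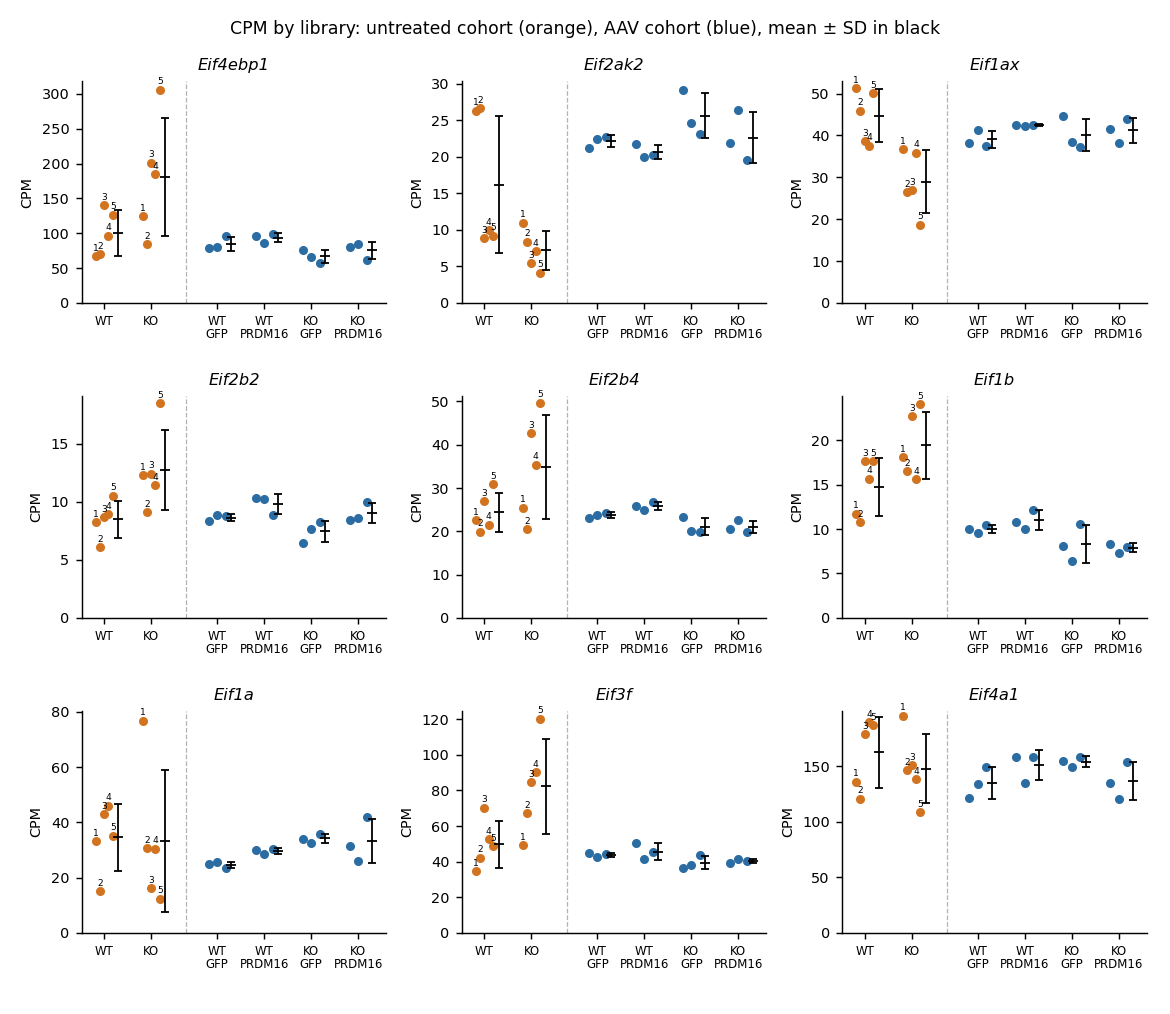
CPM by library for 9 *Eif* genes named by the comparisons, with untreated mice in orange (numbered), AAV mice in blue and the mean ± SD in black, n = 5 or 3 per group and each axis starting at 0. *Eif4ebp1* and *Eif2b4* are higher on average in untreated KO than WT and lower on average in KO than WT under each virus.

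*Eif2ak3*, which was lower on average in untreated KO, was slightly above WT in the AAV cohort. It was at 13.2 to 15.7 CPM in the WT libraries and 15.3 to 17.8 CPM in the KO libraries, a narrow overlap. The log2FC was 0.17 ± 0.07 (edgeR adjusted p = 0.242), and for *Eif2ak2* it was also 0.17 (adjusted p = 0.321). *Eif3c*, a core eIF3 subunit, was at 129 to 145 CPM in WT and 130 to 169 CPM in KO (0.16 ± 0.07, edgeR adjusted p = 0.257), whereas 12 of the 14 eIF3 genes were below 0 and their median was −0.11. The eIF2 subunits *Eif2s1*, *Eif2s2* and *Eif2s3x* had values of 0.05, 0.12 and 0.04.

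Setting the cohorts side by side, 35 of 53 *Eif* genes had opposite signs and 18 (34.0%) the same sign, beside 46.1% with the same sign among 17198 genes tested in both. The cohorts share no mice. The Spearman correlation of the 2 sets of log2FC was −0.52 over the *Eif* genes and −0.02 over all genes. Higher in untreated KO and lower in AAV KO were 21 genes, 14 had the reverse, 16 were lower in both and 2 higher in both. The relation with transcript length turned with it, at −0.65 for untreated mice and 0.49 for AAV mice (all genes −0.29 and 0.19). The cohorts differed in age, feeding, injection, library set and the levels of Y-linked transcripts and *Xist*, and the part of each was not tested. Genes with a CPE match in the last 150 bases had a median log2FC of −0.44 against −0.15 for those without in the untreated cohort (9 and 36 genes). In the AAV cohort the medians were −0.00 and −0.06. The untreated log2FC also varied with length and GC content (Spearman −0.65 and 0.69), and their part in this contrast was not tested.

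Taken one virus at a time, the genotype comparison again called no *Eif* gene with edgeR or DESeq2. Under AAV-GFP the background was 0.00529% higher and 0.0476% lower, and under AAV-PRDM16 0.0423% and 0.00529%. DESeq2 called 0.651% of all genes higher and 0.608% lower under AAV-GFP, and 1.64% and 1.68% under AAV-PRDM16. At an unadjusted p under 0.05, 1 gene was higher and 1 lower under AAV-GFP (all genes 4.98% and 4.2%), and 0 and 5 under AAV-PRDM16 (6.92% and 6.8%). With AAV-GFP, groups did not overlap for 2 genes higher in KO, *Eif1a* and *Eif2ak2*, and for 5 lower, *Eif2b2*, *Eif3g*, *Eif3h*, *Eif4ebp1* and *Eif4h*, beside 6.51% and 6.88% of all genes. With AAV-PRDM16 they did not overlap for 2 higher, *Eif2ak3* and *Eif3c*, and for 10 lower, among them *Eif1b*, *Eif2b4* and *Eif4ebp1*, beside 11.5% and 11.2%. Several of these genes were named after their values were seen. The median log2FC was −0.02 under AAV-GFP, where 25 of 53 genes were above 0 (51.5% of all genes), and −0.10 under AAV-PRDM16, where 11 were (51.4%).

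Immune cell genes moved with genotype and virus in the same libraries. All 10 macrophage genes of a marker list were above WT in KO (median log2FC 0.98, 4 of 10 at an edgeR adjusted p of 0.05), with summed levels of 55.9 to 115 CPM in WT + AAV-GFP, 44.0 to 52.6 in WT + AAV-PRDM16, 140 to 320 in KO + AAV-GFP and 76.9 to 95.1 in KO + AAV-PRDM16. All 15 genes of an interferon-response list were likewise above 0 (median 0.68, 1 of 15). Of 16 brown fat genes 12 were below 0 (median −0.20, 3 lower at an edgeR adjusted p of 0.05). All 16 muscle genes tested were above 0 (median 1.23, none at that threshold), but the 2 viruses differed. Under AAV-GFP 15 of them were above 0 (median 4.51), and under AAV-PRDM16 14 were below 0 (median −2.23). The muscle list summed to 162 CPM in KO + AAV-GFP mouse 1 and to 29.3 to 70.8 CPM in every other AAV library. Averaged over both viruses, 1.06% of all genes were called higher and 1.12% lower. In bulk tissue, fewer cells of a type and less RNA per cell cannot be told apart, and the part of these cells in the *Eif* values was not tested.

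The virus comparison asked whether PRDM16 delivery altered the initiation factor mRNAs. *Prdm16* was at 45.9 to 128 CPM with AAV-PRDM16 and 23.9 to 40.2 CPM with AAV-GFP (log2FC 1.49, edgeR adjusted p = 0.0527, DESeq2 5.07e-08). Averaged over both genotypes, no *Eif* gene passed by edgeR or DESeq2 (background: 0% higher and 0.037% lower with edgeR, 0.217% and 2.97% with DESeq2), and 1 gene had an unadjusted p under 0.05, *Eif2b2*, against 2.07% of all genes higher and 7.02% lower. The log2FC of the 53 genes ran from −0.14 to 0.26, with a median of 0.06 (all genes −0.01). Of the 53, 43 were above 0, beside 48.4% of all genes. The groups of 6 overlapped for every one of them, beside 0.0741% of all genes without overlap and higher and 0.487% lower, and the interval lay within ±0.5 for 51. All 14 eIF3 genes were above 0 with a median of 0.05, and all 3 detected eIF4E genes were below it.

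*Eif2b2* was the member with the smallest p. It was at 8.34, 8.84 and 8.76 CPM in WT + AAV-GFP, 10.4, 10.2 and 8.86 in WT + AAV-PRDM16, 6.45, 7.68 and 8.22 in KO + AAV-GFP and 8.47, 8.58 and 10.0 in KO + AAV-PRDM16. In each genotype all AAV-PRDM16 libraries lay above all AAV-GFP libraries, in WT by the narrow gap from 8.84 to 8.86 CPM. The log2FC was 0.23 ± 0.09 (95% interval 0.03 to 0.42, edgeR adjusted p = 0.407), with 0.18 in WT and 0.27 in KO. *Eif2b3*, the least abundant eIF2B subunit, had 0.22 ± 0.12 (adjusted p = 0.683) and *Eif4enif1*, which carries eIF4E into the nucleus, 0.11 ± 0.06 (0.697). On the other side were *Eif2ak2* (−0.14), *Eif2b1* (−0.14) and *Eif4e3* (−0.13), with edgeR adjusted p of 0.756 or more. These small values moved with single libraries, with *Eif2b3* at 0.11 without KO + AAV-PRDM16 mouse 3, *Eif2ak2* at −0.086 and *Eif2b1* at −0.039 without KO + AAV-GFP mouse 1, and *Eif4e3* at −0.050 without WT + AAV-PRDM16 mouse 1. Without KO + AAV-GFP mouse 3, *Eif2b1* was at −0.22 and *Eif4e3* at −0.23.

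Within WT, 47 of 53 genes were above 0 with AAV-PRDM16 (median 0.10, 47.9% of all genes above 0), and 9 had groups that did not overlap, all higher, beside 6.39% of all genes higher and 7.76% lower. Within KO, 31 were above 0 (median 0.02, all genes 48.5%), and 2 did not overlap, *Eif2b2* and *Eif4enif1*, beside 3.38% and 6.05%. Neither comparison called an *Eif* gene with edgeR or DESeq2 (edgeR background 0% in both directions in each, DESeq2 0.0952% higher in each and 0.683% lower in WT and 1.29% in KO), and in each 0 genes had an unadjusted edgeR p under 0.05, beside 2.1% of all genes higher and 5.19% lower in WT and 1.31% and 5.1% in KO. Averaged over both genotypes, the macrophage list had a median log2FC of −0.78 and the list of T and B cell genes −2.90 with AAV-PRDM16. No gene of either list passed at an edgeR adjusted p of 0.05, and DESeq2 called 4 of 10 and 7 of 14 lower.

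Whether the virus acted differently in KO and WT was tested by the interaction of genotype and virus. No *Eif* gene passed by edgeR or DESeq2 (background 0% in both directions with edgeR and 0.00529% higher and 0% lower with DESeq2), 0 had an unadjusted p under 0.05 (all genes 1.59% higher and 1.6% lower), and every adjusted p was 0.9998 or more. The interaction was below 0 for 44 of 53 genes with a median of −0.07 (all genes −0.00, 49.7% above 0). The genes with the smallest p were *Eif4a1*, an eIF4A helicase (−0.33 ± 0.16), *Eif3d*, an eIF3 subunit able to bind the cap (−0.24 ± 0.13), and *Eif1a* (−0.31 ± 0.20). The *Eif1a* value was −0.17 without KO + AAV-PRDM16 mouse 2 and −0.51 without KO + AAV-PRDM16 mouse 3. *Eif4a1* was at 121.1, 134 and 150 CPM in WT + AAV-GFP, 159, 135 and 159 in WT + AAV-PRDM16, 155, 149 and 159 in KO + AAV-GFP and 135, 120.6 and 154 in KO + AAV-PRDM16, and all 4 groups overlapped. Above 0 with the smallest p were *Eif4ebp3* (0.51 ± 0.94, and 0.10 to 0.90 with 1 library left out), *Eif2b2* (0.09) and *Eif2ak3* (0.06). The interval of an interaction had a median half-width of 0.359, and it lay within ±0.5 for 34 genes.

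KO mice given PRDM16 were also set against WT mice given GFP. No *Eif* gene passed with edgeR (background 0% higher, 0.00529% lower) or DESeq2 (0.392% and 0.439%), and 1, *Eif1a*, had an unadjusted edgeR p under 0.05 (log2FC 0.42, edgeR adjusted p = 0.5005), beside 3.5% of all genes higher and 4.42% lower. Groups did not overlap for *Eif1a* and *Eif3c*, higher, and for *Eif1b*, *Eif2b4*, *Eif3f* and *Eif3m*, lower, beside 6.15% and 7.09% of all genes. The median log2FC of the 53 genes was −0.01 and that of all genes −0.02, with 25 of 53 and 47.4% above 0. The AAV comparisons share mice, so the values of one gene in them are not independent.

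Other genes of initiation and its control, a list of 45 that includes poly(A)-binding proteins, phosphatase subunits, mTORC1 components and the mitochondrial factors, were read alongside, and 43 were tested in each cohort. In the AAV cohort 1 was lower in KO at an edgeR adjusted p of 0.05 and none higher, beside 1.12% and 1.06% of all genes. DESeq2 called 3 lower and none higher, beside 3.97% and 4.41%. The gene was *Ppp1r15b*, which directs a phosphatase to eIF2 alpha, with a log2FC of −0.40 ± 0.09 (adjusted p = 0.0468), and in the untreated cohort it had −0.63 ± 0.25 (0.305). *Dohh*, which completes the hypusine modification of eIF5A, had −0.29 ± 0.07 (0.0503) and *Akt1s1*, an mTORC1 inhibitor, −0.28 ± 0.08 (0.0758). The median of the 43 genes was −0.03 in the AAV cohort (all genes 0.01) and −0.47 in the untreated cohort (all genes 0.04). In the untreated cohort none passed, and 2 were higher and 9 lower at an unadjusted p under 0.05, beside 4.99% and 10.9% of all genes. *Mtif2*, the mitochondrial initiation factor, had −0.96 ± 0.30 there (0.305) and −0.03 in the AAV cohort, and *Pdcd4*, an inhibitor of eIF4A, had −0.92 ± 0.30 (0.305). Averaged over both genotypes, none of the 43 passed for AAV-PRDM16 against AAV-GFP by edgeR or DESeq2, with 2 higher and 1 lower at an unadjusted p under 0.05, beside 2.07% and 7.02% of all genes.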

How the data were processed

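RNA-seq libraries (SureSelect XT HS2 mRNA kit) came from BAT of 22 mice, 10 untreated and 12 AAV-injected, and the labelled groups were used as given. The authors deposited 1 table of raw counts per gene for each cohort. The submitters' processing notes name bcl2fastq 2.20, Trimmomatic 0.36, HISAT2 and build GRCm38.p6. The counter, its annotation, its use of strand and its treatment of duplicates are not given in the sources used here. Both tables were matched to GENCODE M21 by gene identifier (55227 of 55487). All genes passing filterByExpr were fitted with edgeR 4.0.16 (R 4.3.3) with TMM scaling, 1 model per cohort over all its groups, and tested by quasi-likelihood with Benjamini-Hochberg adjustment. The 9 comparisons were repeated with DESeq2 1.42.0, RLE scaling, no filter, a replicate block, single libraries left out and other settings. CPM use TMM library sizes, and RPKM further divide by the union of annotated exons. Scripts were tested on simulated data.

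Named with fold changes were genes called at an adjusted p of 0.05 and, in 4 comparisons, the 3 or fewer genes of smallest p on each side of 0, beside a set list of genes described by level, and any others are said to be chosen after their values were seen. The members and lists were chosen with earlier results of these data known. Each library was taken as 1 mouse, and mice are numbered here by replicate. The labelled mouse numbers 64 and 65 were each given to a WT and a KO library of the AAV cohort. These libraries were treated as separate mice. Libraries of a group differed by more than sampling noise. P-values measure the spread between these mice.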

Additional observations from a re-analysis of the deposited data

Results flagged for a closer look

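Among 106 pairs of an *Eif* gene and an untreated group of 5 mice, 3 had a single library whose gap to its nearest neighbour exceeded 0.71 of the group's range, and chance marks about 1 in 20 groups. *Eif1* stood at 211 CPM in KO mouse 3, with the other KO mice at 126 to 147 CPM. *Eif1a* stood at 76.8 CPM in KO mouse 1, the library whose *Cpeb2* level lay inside the WT range, with the others at 12.3 to 30.6 CPM. *Eif1ad*, a relative of eIF1A, stood at 22.2 CPM in WT mouse 5, with the other WT mice at 16.2 to 17.8 CPM. Groups of 3 mice were not examined in this way.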

How the results depend on the processing

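Of the comparison summaries, 420 values under the alternatives stayed close to the reported one and 65 moved. Among values of single genes, 403 kept direction and side of the threshold, 7 came to pass it and 4 reversed. In untreated mice, 9 *Eif* genes had an unadjusted p under 0.05 as reported (all genes 4.99% higher and 10.9% lower). The number was 16 with a replicate block (6.83% and 12%) and 0 without WT mice 1 and 2 (1.68% and 0.648%). It was 4 with Y-linked transcripts, present or nearly absent, as a covariate (3.15% and 3.79%). Without muscle-rich libraries it was 16 (5.22% and 12.7%), with KO mice 3 and 4 the only KO mice left. *Eif1ax* turned to 0.067 with the GC and length trend removed. For genotype averaged over both viruses, DESeq2 called 4 genes instead of 0. Counts at an unadjusted p were 2 (RLE scaling), 3 (no filter) and 3 (replicate block) instead of 5 for genotype under AAV-PRDM16, and 1 (DESeq2, RLE) instead of 0 for the virus in KO. For the virus in WT they were 1 (GC and length) and 2 (only the groups compared) instead of 0. For KO + AAV-PRDM16 against WT + AAV-GFP they were 2 (DESeq2, RLE, replicate block) and 3 (only the groups compared) instead of 1, and for the interaction 1 (replicate block, GC and length) instead of 0. The cause of these differences was not tested, and the muscle, the GC and length and the principal transcript alternatives were chosen after seeing the data.

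Mice with the same replicate number had correlations of their deviations of −0.29 to 0.11 in the untreated and −0.09 to 0.15 in the AAV cohort. Not every mouse correlated best with its own replicate number, and these numbers were not treated as pairs. The replicate block brought no *Eif* gene past an adjusted p of 0.05.

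Leaving out 1 library at a time, the unadjusted counts ran from 3 (without WT mouse 1) to 21 (without KO mouse 1) in untreated mice, 4 (without WT + AAV-PRDM16 mouse 1) to 12 (without KO + AAV-GFP mouse 3) for genotype over both viruses, 1 to 5 (without KO + AAV-GFP mouse 1) under AAV-GFP, 1 to 7 under AAV-PRDM16 (without WT + AAV-PRDM16 mice 3 and 2), 0 to 2 for the virus in WT, 0 to 3 in KO, 0 to 4 over both genotypes, 0 to 3 for KO + AAV-PRDM16 against WT + AAV-GFP and 0 to 2 for the interaction. Adjusted calls were 0 to 1 for genotype over both viruses and 0 elsewhere. The median log2FC ran from −0.34 to −0.11 in untreated mice, −0.10 to 0.015 under AAV-GFP, −0.14 to −0.08 under AAV-PRDM16, −0.10 to −0.03 over both viruses, 0.07 to 0.14 for the virus in WT, −0.01 to 0.06 in KO, 0.04 to 0.08 over both genotypes, −0.05 to 0.04 for KO + AAV-PRDM16 against WT + AAV-GFP and −0.12 to −0.03 for the interaction. The interaction of *Eif2ak3* ran from −0.0084 to 0.12 (−0.00032 without WT + AAV-GFP mouse 2) and that of *Eif2b2* from −0.0072 to 0.17.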
